A study of Mus musculus with 7 samples.

Results

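The Zfp genes described here encode zinc finger proteins of the mouse, and their RNA was measured in hematopoietic stem cells (HSCs), the bone marrow cells that renew all blood lineages. Members were the protein-coding genes whose symbol is Zfp followed by a digit in release M21 of the GENCODE annotation and whose mean level over all 7 libraries was at least 5 FPKM (fragments scaled to the depth of the library and to the length of the gene, here its mean transcript length). There were 206 members among 394 protein-coding Zfp genes, or 52.3%, out of 55855 genes in the table. Members were thus chosen by their mean FPKM over both groups, so their levels are a description, while the difference between the groups was not part of the choice. Of the Zfp genes left out, 81 had a mean under 1 FPKM, of which 28 were at 0 in every library, and 107 had a mean from 1 to 5 FPKM.

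The study removed Fth1, which encodes the ferritin heavy chain, the subunit that oxidizes iron for storage, to ask what iron does in HSCs. The 4 Fth1-deleted libraries came from HSCs of mice labelled Fth1△/△, with a conditional deletion in the hematopoietic system, and the 3 control libraries from HSCs of mice labelled Fth1fl/fl, which carry the floxed gene undeleted. All mice were 2 months old. The Cre driver, the markers of the sort and the sex of the mice are not given in the sources used here. Each library was made from polyA RNA, and whether each came from a separate mouse is not stated, so p-values measure the spread between libraries, which may be technical.

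Zinc fingers are short loops of protein folded around a zinc ion. Most Zfp proteins carry tandem fingers of the C2H2 kind, in which a pair of cysteines and a pair of histidines hold the zinc and each finger reads a few bases of DNA. Many also carry a KRAB box, which recruits the corepressor Trim28 and with it Setdb1, a histone methyltransferase, to silence retroelements and imprinted loci. KRAB genes multiplied by tandem duplication and lie in chromosome clusters. A small branch, Zfp36 and its relatives, has CCCH fingers that bind RNA.

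Fth1 had 202, 333, 358 and 114 FPKM in Fth1-deleted libraries 1 to 4, against 552, 659 and 638 FPKM in control libraries 1 to 3. Every Fth1-deleted library was below every control library, with RNA of the gene remaining in each, and the log2 difference was -1.42 (SE 0.33, adjusted p by limma 0.193). Counted reads per library, recovered from the values, numbered 12807403 to 15453783 in Fth1-deleted and 12058901 to 15046463 in control libraries. Several library features moved with the groups. Ribosomal RNA took 1.22% to 1.34% of reads in the Fth1-deleted libraries, against 0.0254%, 0.985% and 0.014% in control 1 to 3. Reads of 4 Y-linked genes (Ddx3y, Eif2s3y, Kdm5d and Uty) were present in Fth1-deleted 1 to 3 and in control 2 and were at 0 in Fth1-deleted 4 and in control 1 and 3. Of the 6 HSC markers (Hlf, Procr, Mecom, Ly6a, Kit and Slamf1), all were detected and 5 had negative log2 differences (median -0.48). Their summed level ranged from 425.4 to 581 FPKM in Fth1-deleted and from 561 to 935 FPKM in control libraries. All 5 tested of 6 neutrophil markers had positive log2 differences, and their summed level was 41.2 to 249 FPKM in Fth1-deleted and 2.33 to 38.0 FPKM in control libraries, with Ltf and Elane at 0 in every control library. All 5 macrophage markers were positive, at 50.05 to 108.5 FPKM in sum in Fth1-deleted and 19.4 to 35.2 FPKM in control libraries, with Adgre1 at 0 in every control library. The 3 tested of 5 mast cell and basophil markers were positive, at 17.2 to 44.4 FPKM in sum in Fth1-deleted and 0 to 12.9 FPKM in control libraries, with Gzmb at 0 in every control library and Prss34 at 0 in all libraries. The sums of the erythroid, megakaryocyte and T and NK cell lists overlapped between the groups, with Cd3e at 0 in all libraries. What part these features have in the results on Zfp genes was not tested, and in bulk RNA fewer cells of a type and less RNA per cell cannot be told apart.

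No Zfp member passed the threshold between the groups. Values were analysed as log2(FPKM + 1) with limma-trend (two-sided), and p-values were adjusted by the Benjamini-Hochberg method over all 13948 genes with a mean of at least 1 FPKM. At an adjusted p of 0.05, 0 of 206 members were called, where 0.0574% of all tested genes were (8 genes, with 4 higher and 4 lower, 0.0287% in each direction). The smallest adjusted p among the members was 0.306, for Zfp532. At an unadjusted p under 0.05 there were 15 members, or 7.28%, where 9.83% of all tested genes reached it. Of these 15, 14 had lower values in Fth1-deleted cells, where 4.93% of all tested genes did, and Zfp692 alone had higher ones, where 4.9% did. With limma-voom on the recovered reads 0 members were called, and 15 again had an unadjusted p under 0.05.

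The direction of the differences was uneven. The log2 difference, Fth1-deleted minus control, had a median of -0.18 over the members, against -0.02 over all tested genes and -0.01 over the 9547 protein-coding genes at a mean of at least 5 FPKM. It was negative in 135 of 206 members, or 65.5%, where 51.3% of all tested genes were negative. Protein-coding genes at low level had negative medians too. At 5 to 10 FPKM the 68 members had a median of -0.13 and the 1335 protein-coding genes -0.13. At 10 to 20 FPKM these medians were -0.26 over 63 members and -0.07 over protein-coding genes. At 20 to 50 FPKM they were -0.11 over 56 members and -0.01 over protein-coding genes. From 50 FPKM upward they were -0.21 over 19 members and 0.05 over protein-coding genes. Over the 125 members that share no exonic base with another gene and have no near-identical copy, the median was -0.19, with 82 negative. These medians are descriptions of a list whose members share libraries, and no test was made of them. The median was negative under each of the alternatives tried, but it ranged from -0.42, with the ribosomal RNA share as a covariate, to -0.12, with quantile normalization. It was -0.32 among the 4 libraries with Y-linked reads (control 2 the only control), -0.19 among the 3 lacking them (Fth1-deleted 4 the only one of its group), and -0.34 among the 5 with a high ribosomal RNA share (control 2 the only control). The ribosomal RNA share itself nearly followed the groups, as control 2 (0.985%) was the only control near the 1.22% to 1.34% of Fth1-deleted libraries. A fit with it as a covariate therefore leans on control 2, and group and covariate are hard to tell apart.

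**Figure D1:**
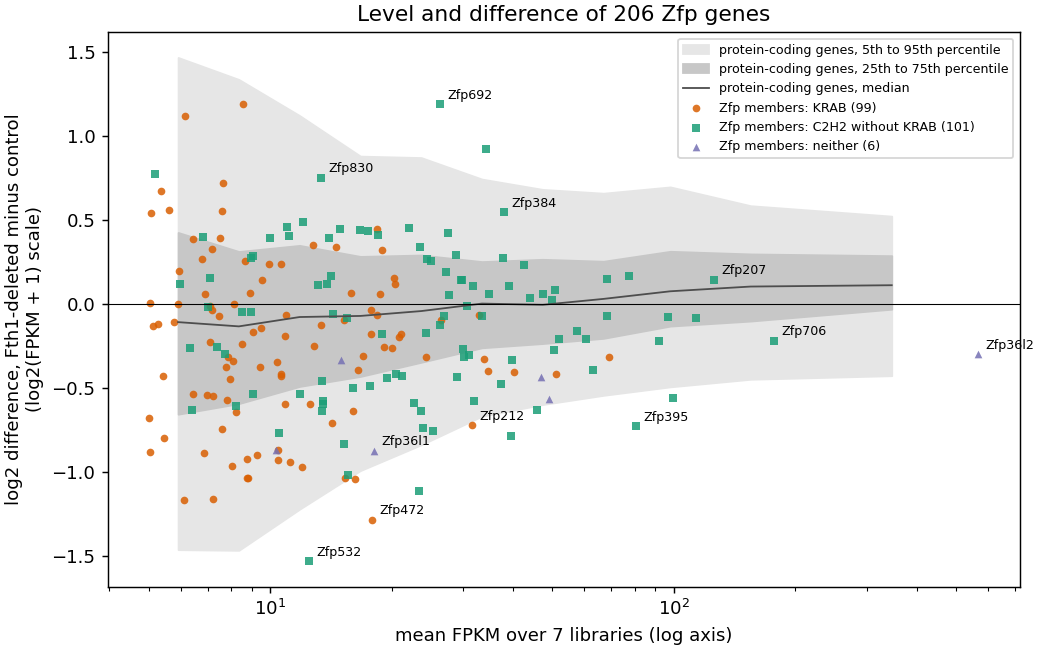
Mean FPKM over 7 libraries (log axis) against the log2 difference, Fth1-deleted minus control, of 206 Zfp members, coloured by class, over the spread of protein-coding genes at the same level (shaded). Members lie on both sides of 0, with 135 below it, and Zfp532 and Zfp692 stand near both ends.

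Single libraries contributed unequally. Control 2 held the highest value of 67 of the 206 members, or 32.5%, where it held the highest value of 21.1% of protein-coding genes at 5 FPKM or more. Fth1-deleted 4 held the lowest value of 47 members, or 22.8%, where it held the lowest of 15.3% of protein-coding genes. The median deviation of the members from their own means was -0.10, 0.05, 0.05 and -0.18 on the log2 scale in Fth1-deleted 1 to 4, against 0.09, 0.25 and 0.06 in control 1 to 3. Fth1-deleted 2 and 3 were therefore at about the level of control 1 and 3. Without control 2 the median difference of the members was -0.13, with 121 negative, and without Fth1-deleted 4 it was -0.14, with 122 negative.

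**Figure D2:**
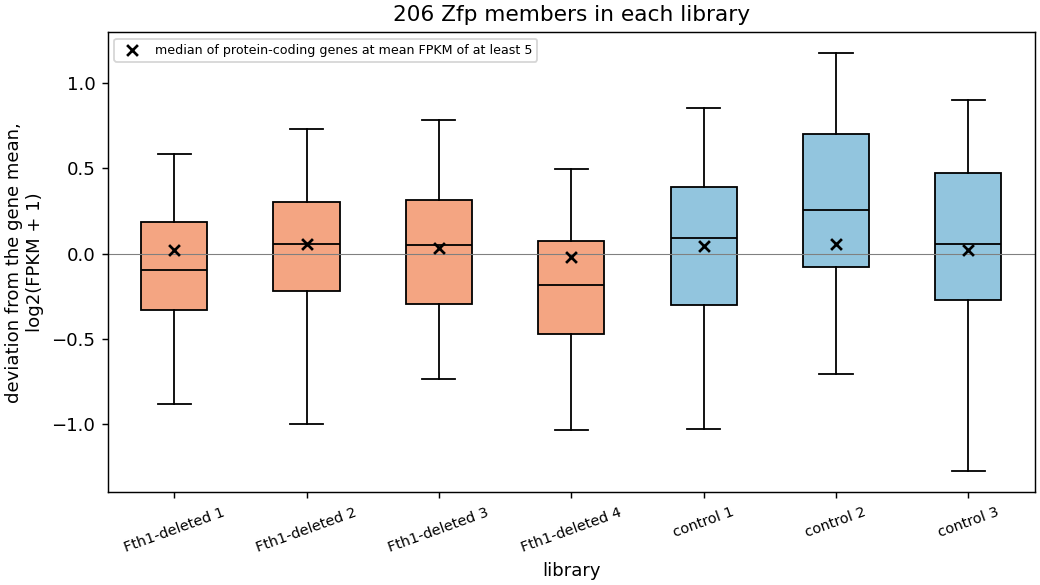
Deviation of each of 206 Zfp members from its mean over 7 libraries, in log2(FPKM + 1), by library (line, median; box, 25th to 75th percentile; whiskers, 5th to 95th percentile). Crosses mark the median of protein-coding genes at a mean of at least 5 FPKM. Control 2 has the highest median (0.25) and Fth1-deleted 4 the lowest (-0.18).

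The spread between libraries was wide beside the differences. The median coefficient of variation of a member was 29.9% in Fth1-deleted and 34.2% in control libraries, while counting alone would give 4.75% at the median of 442 reads per member. Among KRAB members it was 39.2% in Fth1-deleted and 42.5% in control libraries. KRAB members ranged from 5.02 to 68.9 FPKM in mean level, with a median of 9.44 FPKM. In protein-coding genes of 5 to 10 FPKM the coefficient was 46.6% in Fth1-deleted and 52.0% in control libraries. At 10 to 20 FPKM it was 33.7% and 38.5% in that order, so the KRAB members lay between these levels.

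A KRAB box was found in 239 of the 394 Zfp genes, from the translated coding sequence. Of these, 99 were members (41.4%), while 101 of the 142 genes with C2H2 fingers and no KRAB box were (71.1%), and 6 of the 13 genes with neither. KRAB members had a median level of 9.44 FPKM, and C2H2 members without the box 23.9 FPKM. The median log2 difference was -0.24 over KRAB members, with 72 of 99 negative, and -0.07 over C2H2 members without the box, with 57 of 101 negative. With the ribosomal RNA share as a covariate the median was -0.65 over KRAB members and -0.21 over C2H2 members without the box, and with quantile normalization it was -0.15 and -0.02 in that order. The 6 members with neither had a median of -0.50, and all were negative. By finger number, the median was -0.37 over 32 members with 0 to 3 C2H2 fingers, -0.01 over 50 with 4 to 8, -0.31 over 69 with 9 to 12 and -0.10 over 55 with 13 or more, so it followed no single order. Whether the classes differ was not tested.

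Members were also counted by whether their groups overlapped. In 18 members, or 8.74%, every Fth1-deleted library was below every control library, where 5.55% of all tested genes and 5.92% of protein-coding genes at 5 FPKM or more were. In 3 members, or 1.46%, every Fth1-deleted library was above every control library, where 4.1% of all tested genes and 4.76% of the protein-coding genes were. By level, the lower share at 5 to 10 FPKM was 4.41% of members and 7.34% of protein-coding genes. At 10 to 20 FPKM these shares were 7.94% and 7.82%. They were 12.5% and 5.65% at 20 to 50 FPKM, and 15.8% and 4.275% from 50 FPKM upward. By class, 7 of 99 KRAB members (7.07%), 10 of 101 C2H2 members without the box (9.90%) and 1 of 6 with neither lay lower. The 3 higher members have C2H2 fingers without the box. Both counts, of lower and of higher members, are small. On fixed values, leaving out a library can only keep or raise them, so a rise does not measure dependence on that library. Without control 1, 2 or 3 the lower count was 42, 28 or 32 and the higher count 11, 10 or 6, and the higher count was also 6 without Fth1-deleted 2, 3 or 4. The shares over all tested genes moved in the same way. Without control 1, 2 or 3, 11.75%, 9.43% or 10.95% of them lay lower and 9.20%, 7.77% or 7.87% higher, and without Fth1-deleted 2, 3 or 4, 6.57%, 6.38% or 5.97% lay higher. After rescaling of each library to a fixed sum (TPM) the lower count was 22, where 6.72% of all tested genes lay lower, and the higher count was 1, where 3.08% lay higher.

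**Figure D3:**
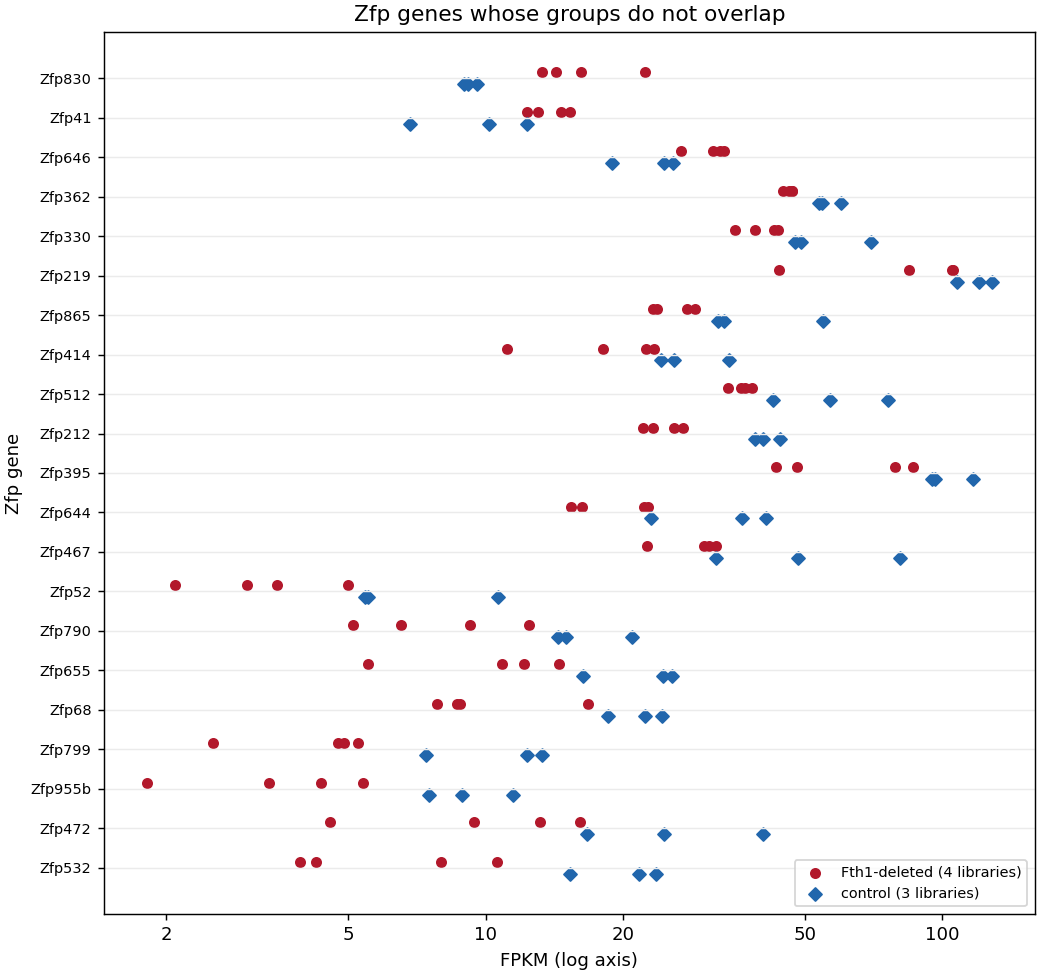
FPKM (log axis) in each of 4 Fth1-deleted libraries (circles) and 3 control libraries (diamonds) for the 21 Zfp members whose groups do not overlap, sorted by log2 difference. In Zfp830, Zfp41 and Zfp646 the circles lie to the right, and in the other 18 genes to the left; several gaps are narrow, as in Zfp472, Zfp467 and Zfp41.

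Zfp532, with 10 C2H2 fingers and no KRAB box, had the most negative difference of all members. It lies on chromosome 18 (GRCm38, 65579912 to 65689443, plus strand). Its level was 8.005, 4.26, 3.93 and 10.6 FPKM in Fth1-deleted libraries, against 21.6, 23.6 and 15.3 FPKM in control libraries. The highest Fth1-deleted value thus stayed below the lowest control value, and the log2 difference was -1.53 (SE 0.45, adjusted p by limma 0.306). Exons of Zfp532 share 21.7% of their length with AC132307.5 on the other strand, and since the counting is not stated to use strand, reads of both genes cannot be told apart.

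Zfp395, with 1 C2H2 finger, was the most abundant of the lower members after Zfp219. It had 78.7, 86.4, 48.0 and 43.1 FPKM in Fth1-deleted libraries, against 96.2, 95.1 and 117 FPKM in control libraries. Fth1-deleted 3 and 4 were lowest, and the log2 difference was -0.73 (SE 0.27, adjusted p by limma 0.426). Zfp512 had 34.0, 38.3, 36.3 and 37.0 FPKM in Fth1-deleted libraries, against 76.2, 56.7 and 42.7 FPKM in control libraries. Its Fth1-deleted libraries were close together and its control libraries wide apart, with a log2 difference of -0.63 (SE 0.25, adjusted p by limma 0.445). Zfp644, a partner of the histone methyltransferases Ehmt1 and Ehmt2, had 22.7, 16.3, 22.2 and 15.4 FPKM in Fth1-deleted libraries, against 23.0, 41.2 and 36.5 FPKM in control libraries. The groups were separated by a narrow gap at control 1, and the log2 difference was -0.76 (SE 0.32, adjusted p by limma 0.472). Zfp644 shares 1.02% of its exonic bases with Gm28039 on the same strand. Zfp655 had 12.1, 14.5, 10.9 and 5.54 FPKM in Fth1-deleted libraries, against 16.3, 25.6 and 24.4 FPKM in control libraries, with a log2 difference of -1.02 (SE 0.40). Its lowest library was Fth1-deleted 4. Zfp362, with 6 fingers, had 46.8, 46.1, 47.0 and 44.7 FPKM in Fth1-deleted libraries, against 53.8, 60.1 and 54.5 FPKM in control libraries. Both groups were tight, and its log2 difference was small at -0.28 (SE 0.21, adjusted p by limma 0.697). The remaining lower members outside the clusters described next were Zfp330 (log2 difference -0.44, SE 0.24) and Zfp219. Of Zfp330, which encodes a nucleolar protein, 18.3% of the transcript is nearly identical to Gm26683, so its reads could be split.

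The higher members were few. Zfp830, a nuclear protein with 1 C2H2 finger that mouse blood progenitors need to survive, had 22.4, 16.2, 14.3 and 13.3 FPKM in Fth1-deleted libraries, against 8.96, 9.57 and 9.17 FPKM in control libraries. All Fth1-deleted values lay clear of the tight control values, with a log2 difference of 0.75 (SE 0.36, adjusted p by limma 0.54). Zfp41 had 12.3, 15.3, 12.998 and 14.6 FPKM in Fth1-deleted libraries, against 10.2, 6.82 and 12.3 FPKM in control libraries. Fth1-deleted 1 and control 3 were almost equal, and the log2 difference was 0.49 (SE 0.38, adjusted p by limma 0.702). Zfp646, with 27 fingers, had 33.3, 32.6, 31.5 and 26.8 FPKM in Fth1-deleted libraries, against 24.6, 25.7 and 18.9 FPKM in control libraries, a log2 difference of 0.42 (SE 0.27, adjusted p by limma 0.644). Zfp646 shares 6.25% of its exonic bases with Zfp668 on the other strand.

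Zfp692 had one of the most positive differences, but its groups overlapped. It had 35.2, 35.7, 36.5 and 27.1 FPKM in Fth1-deleted libraries, against 29.2, 14.3 and 6.46 FPKM in control libraries. Control 1 lay above Fth1-deleted 4, the control libraries spread widely, and the log2 difference was 1.19 (SE 0.42, adjusted p by limma 0.41).

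The Zfp genes are gathered on a few chromosomes. Chromosome 7 held 52 members (25.2%), chromosome 17 held 23 (11.2%) and chromosome 13 held 15. On chromosome 8, all 12 members had negative differences (median -0.22), and on chromosome 17 18 of 23 did (median -0.30), while on chromosome 3 all 3 were positive (median 0.29). Runs of at least 3 Zfp genes with gaps of at most 500 kb formed 33 clusters holding 238 genes. Of these, 25 on 12 chromosomes held at least 2 members and 109 members in all. The median difference of the members was negative in 20 clusters and positive in 5, all members were negative in 6 clusters, and all were positive in 2. The all-positive clusters and most of the all-negative ones held only 2 members, where 65.5% of all members were negative. The 114 members in any cluster had a median of -0.19 with 80 negative, and the 92 outside had -0.17 with 55 negative. With gaps of at most 250 or 1000 kb, 23 or 26 clusters held at least 2 members, of which 19 or 20 had a negative median.

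**Figure D4:**
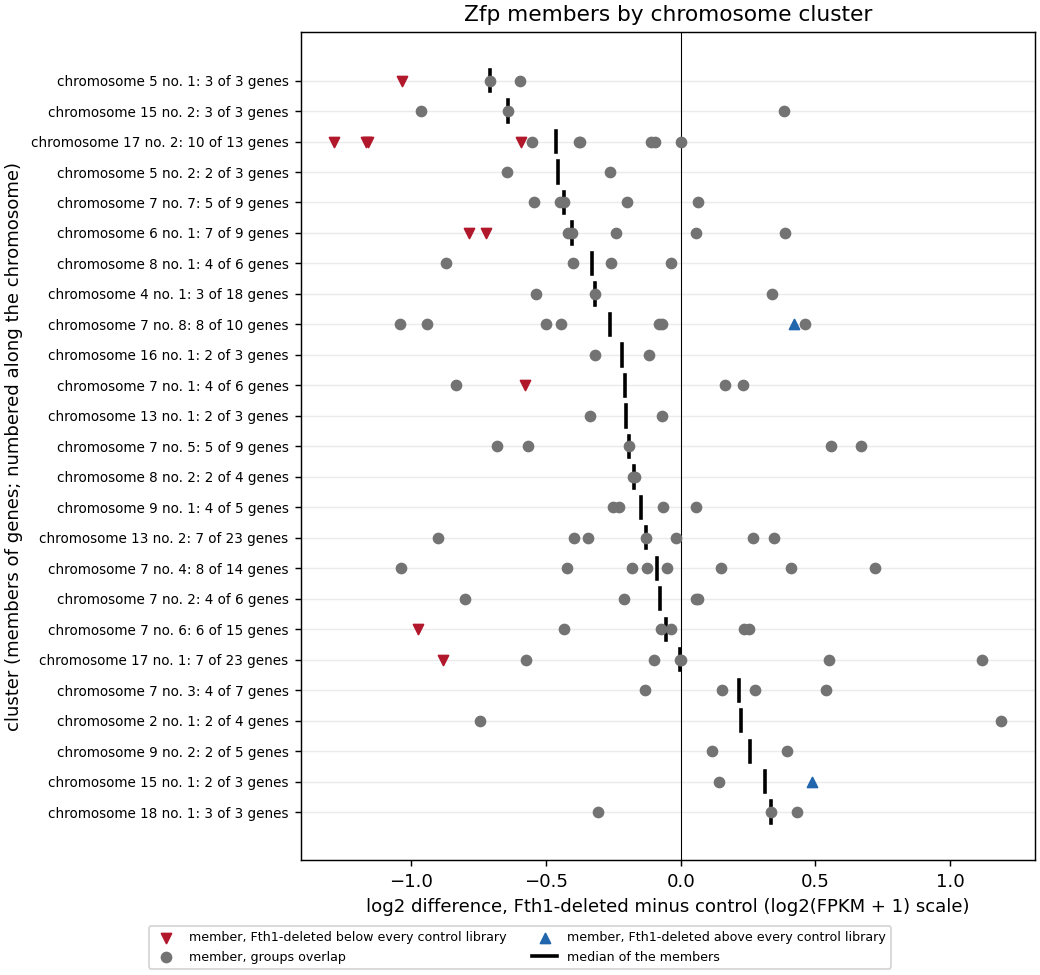
Log2 difference, Fth1-deleted minus control, of the members in each of 25 chromosome clusters that hold at least 2 members, sorted by median (bar). Red triangles are members with every Fth1-deleted library below every control library, blue triangles the opposite. The second cluster of chromosome 17 holds 4 red triangles, and most clusters hold members on both sides of 0.

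The cluster of chromosome 17 from 32765496 to 33631779 (GRCm38) held more of the separated genes than any other. Of its 13 Zfp genes, 12 with a KRAB box, 10 were members. In 9 the difference was negative, in 4 the groups did not overlap (Zfp472, Zfp799, Zfp955b and Zfp414), and the median was -0.46. Groups were separated in this direction in 5.55% of all tested genes and in 8.74% of members. At 5 to 10 FPKM the share was 7.34% of protein-coding genes. The cluster is the extreme of 25, and whether it exceeds these shares was not tested. Of the 4, Zfp955b has a near-identical copy, and Zfp799, Zfp955b and Zfp414 share exonic bases with other genes. The share was 7.55% in Zfp799 (with Gm26693) and 12.2% in Zfp955b (with Zfp422-ps), each on the other strand. The summed level of the 10 was 98.8, 121, 83.3 and 79.5 FPKM in Fth1-deleted libraries, against 149.6, 119 and 159 FPKM in control libraries, so Fth1-deleted 2 lay above control 2 and the sums overlapped. Of the genes left out, Zfp870 and Zfp563 averaged 3.63 and 2.01 FPKM, and Zfp811 was at 0 in every library.

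The first C2H2 finger of regular spacing is shown for its KRAB members Zfp799 (32815449 to 32830261, minus strand), Zfp472 (32965814 to 32979233, plus strand) and Zfp955b (33289544 to 33307241, plus strand), as coding bases from the longest GENCODE M21 coding sequence, because these neighbours had the most negative differences in the cluster. Zfp68 of chromosome 5 and Zfp212 of chromosome 6 stand beside them as lower members of other clusters. Capitals mark the codons of the cysteines and histidines that hold the zinc, and the lower case bases between include those for the residues that touch DNA.
Zfp799: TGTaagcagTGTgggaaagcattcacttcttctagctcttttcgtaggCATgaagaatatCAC
Zfp472: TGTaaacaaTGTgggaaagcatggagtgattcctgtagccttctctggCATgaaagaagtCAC
Zfp955b: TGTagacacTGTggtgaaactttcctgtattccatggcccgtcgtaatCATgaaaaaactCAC
Zfp68: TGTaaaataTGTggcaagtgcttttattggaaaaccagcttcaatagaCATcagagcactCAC
Zfp212: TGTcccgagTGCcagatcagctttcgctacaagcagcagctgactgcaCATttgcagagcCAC
Over these 63 bases Zfp472 and Zfp799 shared 42 positions, Zfp955b and Zfp799 40, Zfp68 and Zfp799 31, and Zfp212 and Zfp799 21. The neighbours on chromosome 17 were thus closer to each other than to Zfp212 in these bases. In residues the order differed, as Zfp799 shared 12 of 21 with Zfp472, 11 with Zfp68 and 9 with Zfp955b. Each stretch is the first regular finger of its protein, and fingers were not matched between proteins. The proteins hold 16 fingers in Zfp799, 12 in Zfp472, 10 in Zfp955b, 9 in Zfp68 and 4 in Zfp212.

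Zfp472 had 13.2, 16.1, 9.46 and 4.56 FPKM in Fth1-deleted libraries, against 24.6, 16.7 and 40.5 FPKM in control libraries. Fth1-deleted 2 and control 2 were almost equal and control 3 was far above the rest, with a log2 difference of -1.29 (SE 0.46, adjusted p by limma 0.422). Zfp799 had 5.25, 2.53, 4.74 and 4.90 FPKM in Fth1-deleted libraries, against 12.3, 7.41 and 13.3 FPKM in control libraries. Its Fth1-deleted values all lay below control 2, the lowest control, and Fth1-deleted 2 was the lowest of them, with a log2 difference of -1.16 (SE 0.48, adjusted p by limma 0.472). Zfp955b had 3.36, 4.37, 5.39 and 1.81 FPKM in Fth1-deleted libraries, against 11.5, 8.89 and 7.51 FPKM in control libraries, a log2 difference of -1.17 (SE 0.51, adjusted p by limma 0.49). Its close copy Zfp955a, inside the limit of 5 FPKM by a narrow margin, was not lower. Zfp955a had 6.48, 6.40, 1.81 and 6.18 FPKM in Fth1-deleted libraries, against 4.29, 4.82 and 5.24 FPKM in control libraries, and the groups overlapped (log2 difference 0.00, SE 0.55). Nearly identical stretches cover 61.5% of the transcript of Zfp955b and all of that of Zfp955a, so the split of reads between this pair is uncertain. Zfp414, with 2 fingers and no KRAB box, had 22.4, 23.4, 11.1 and 18.1 FPKM in Fth1-deleted libraries, against 25.9, 34.2 and 24.2 FPKM in control libraries (log2 difference -0.59, SE 0.34), and shares 30.4% of its exonic bases with Gm20507 on the same strand. The other members of the cluster overlapped between the groups, at log2 differences of -0.55 (Zfp763), -0.38 (Zfp81), -0.37 (Zfp101), -0.11 (Zfp952) and -0.09 (Zfp871). The signs of Zfp955a, Zfp952 and Zfp871 turned when 1 library was left out, to -0.12 without Fth1-deleted 1 in Zfp955a, 0.25 without control 3 in Zfp952 and 0.06 without Fth1-deleted 4 in Zfp871.

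On chromosome 5, from 138139702 to 138619761, the cluster of Zfp113, Zfp157 and Zfp68 was wholly of KRAB members, and all 3 differences were negative, with the lowest median (-0.71) of the 25 clusters that hold at least 2 members. Zfp68 had 8.80, 7.83, 16.8 and 8.67 FPKM in Fth1-deleted libraries, against 18.6, 24.4 and 22.3 FPKM in control libraries. Fth1-deleted 3 stood apart from its group and close to control 1, and the log2 difference was -1.04 (SE 0.38, adjusted p by limma 0.426). Zfp68 shares 5.95% of its exonic bases with Gm42815 on the other strand. Zfp113 had 13.5, 11.5, 9.0 and 8.96 FPKM in Fth1-deleted libraries, against 12.3, 27.5 and 17.002 FPKM in control libraries. Zfp157 had 10.2, 7.47, 6.51 and 8.08 FPKM in Fth1-deleted libraries, against 6.996, 26.4 and 10.4 FPKM in control libraries. The summed level of the 3 genes was 32.5, 26.8, 32.3 and 25.7 FPKM in Fth1-deleted libraries, against 37.9, 78.2 and 49.8 FPKM in control libraries, without overlap. In both Zfp113 and Zfp157, control 2 was the highest library and control 1 fell within the Fth1-deleted range.

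On chromosome 6, from 47819266 to 48623227, 7 of 9 genes were members, 5 had negative differences and the median was -0.40. Zfp212 had 23.2, 27.1, 25.8 and 22.1 FPKM in Fth1-deleted libraries, against 38.8, 40.5 and 44.1 FPKM in control libraries. Both groups were tight and far apart, with means of 24.6 ± 2.30 FPKM in Fth1-deleted (SD, n = 4) and 41.1 ± 2.67 FPKM in control libraries (SD, n = 3). Its log2 difference was -0.72 (SE 0.25, adjusted p by limma 0.391). Zfp467, with 12 fingers and no KRAB box, had 30.9, 30.1, 31.9 and 22.6 FPKM in Fth1-deleted libraries, against 32.0, 81.0 and 48.4 FPKM in control libraries. Control 1 lay just above the Fth1-deleted values, and the log2 difference was -0.79 (SE 0.32, adjusted p by limma 0.456). Zfp746, a KRAB repressor also known as Paris, had 30.8, 34.7, 30.4 and 39.9 FPKM in Fth1-deleted libraries, against 71.9, 47.7 and 26.4 FPKM in control libraries, and control 3 was the lowest of all. The 7 members summed to 168, 170.2, 187 and 171 FPKM in Fth1-deleted libraries, against 249.5, 278.5 and 202 FPKM in control libraries, and these sums did not overlap. Sums also did not overlap in the cluster on chromosome 7 from 6131491 to 6396915. They were 107, 92.8, 115.7 and 113 FPKM in Fth1-deleted libraries, against 118, 116.4 and 132 FPKM in control libraries. Of its members, 2 were negative and 2 positive, at a median of -0.08. Whether such sums set a cluster apart was not tested. Other clusters were mixed: the 7 members on chromosome 17 from 21008903 to 23599487 ranged from -0.88 (Zfp52) to 1.12 in log2 difference around a median of -0.00, and 6 members on chromosome 7 from 29768552 to 30169750 ranged from -0.97 (Zfp790) to 0.25. Zfp790 had 6.53, 9.26, 12.5 and 5.13 FPKM in Fth1-deleted libraries, against 14.98, 20.98 and 14.4 FPKM in control libraries (SE of the log2 difference 0.42, adjusted p by limma 0.483). Zfp52 had 3.49, 2.09, 3.01 and 5.01 FPKM in Fth1-deleted libraries, against 5.45, 10.7 and 5.53 FPKM in control libraries (SE of the log2 difference 0.54, adjusted p by limma 0.627). In both, which carry a KRAB box, every Fth1-deleted library was below every control library, by a narrow margin in Zfp52. The same held in Zfp865 of chromosome 7 (log2 difference -0.58, SE 0.28), which shares 20.7% of its exonic bases with Zfp784 on the other strand.

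The RNA decay branch had the most abundant member of all. Zfp36, Zfp36l1 and Zfp36l2 bind AU-rich stretches of messenger RNA through a pair of CCCH fingers and bring in the enzymes that degrade it, and mice need Zfp36l2 for definitive hematopoiesis. The coding bases of the first CCCH finger are shown because the same fold is kept in the 3 genes at very different levels, with the codons of the 3 cysteines and the histidine in capitals.
Zfp36l2: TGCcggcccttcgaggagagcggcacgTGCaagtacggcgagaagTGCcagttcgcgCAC
Zfp36: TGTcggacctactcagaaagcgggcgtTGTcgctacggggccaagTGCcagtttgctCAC
Zfp36l1: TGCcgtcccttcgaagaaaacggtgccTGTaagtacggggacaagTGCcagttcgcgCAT
Over 60 bases Zfp36l1 and Zfp36l2 shared 49 positions and 17 of 20 residues, and Zfp36 and Zfp36l2 shared 40 positions and 14 residues.

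Zfp36l2, on chromosome 17 (84183931 to 84187947, minus strand), ranked first among the members both per mean transcript length and per length of all exons. It had 501, 580.0, 544 and 437 FPKM in Fth1-deleted libraries, against 531, 720.2 and 660.1 FPKM in control libraries. Control 1 lay within the Fth1-deleted range, and the log2 difference was -0.30 (SE 0.17, adjusted p by limma 0.602). Zfp36, on chromosome 7, had 42.8, 54.0, 49.7 and 19.2 FPKM in Fth1-deleted libraries, against 52.6, 77.5 and 47.0 FPKM in control libraries. Fth1-deleted 4 was far below the rest and the groups overlapped, with a log2 difference of -0.57 (SE 0.35, adjusted p by limma 0.633). Zfp36l1, on chromosome 12, had 10.8, 16.1, 9.27 and 14.4 FPKM in Fth1-deleted libraries, against 28.7, 33.9 and 13.2 FPKM in control libraries. Control 3 lay inside the Fth1-deleted range, and the log2 difference was -0.87 (SE 0.40, adjusted p by limma 0.506). Exons of Zfp36l1 share 55.9% of their length with Gm26669 on the other strand, so reads of both genes cannot be told apart. All 3 differences were thus negative, and none passed the test.

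**Figure D5:**
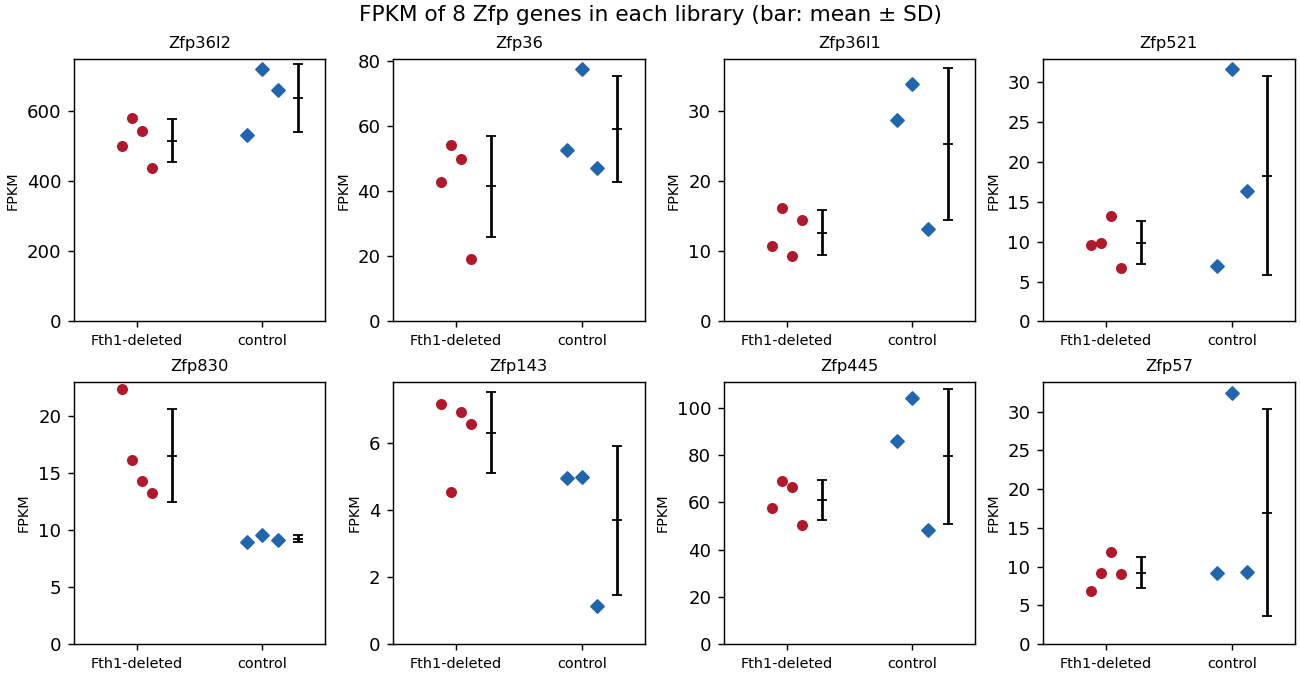
FPKM of 8 Zfp genes in each Fth1-deleted library (circles, left) and control library (diamonds, right), with the mean and SD of each group beside the points. Zfp830 is the only gene of the 8 whose groups do not overlap; in Zfp521 and Zfp57 control 2 stands far above the other libraries.

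Next in level were members of general function. Zfp706, a small protein of 76 residues, had 153, 169.6, 167 and 171 FPKM in Fth1-deleted libraries, against 163, 195 and 224 FPKM in control libraries (log2 difference -0.22, SE 0.17). Zfp207, which loads the checkpoint protein Bub3 on kinetochores and helps build the spindle, had 138, 155, 117 and 112 FPKM in Fth1-deleted libraries, against 97.6, 144 and 115 FPKM in control libraries (log2 difference 0.14, SE 0.20). Zfp106, an RNA-binding protein, averaged 111 ± 18.9 FPKM in Fth1-deleted (SD, n = 4) and 117 ± 5.11 FPKM in control libraries (SD, n = 3). In these 3 genes the groups overlapped, and Zfp106 shares 26.1% of its exonic bases with Gm26899 on the other strand. Zfp219, with 9 fingers, had 105, 84.6, 105 and 44.0 FPKM in Fth1-deleted libraries, against 129, 120.4 and 108 FPKM in control libraries. Its groups did not overlap, although Fth1-deleted 1 and 3 nearly reached control 3 and Fth1-deleted 4 was far lower. The log2 difference was -0.56 (SE 0.29, adjusted p by limma 0.569), and Zfp219 shares 5.89% of its exonic bases with Tmem253 on the other strand. At the other end, Zfp955a (5.03 FPKM) and Zfp59 (5.02 FPKM) were just above the limit of 5, and Zfp709 (4.97 FPKM) and Zfp958 (4.92 FPKM) just below it.

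Of 29 Zfp genes listed for a known role, 28 were members, 13 with negative and 15 with positive differences (median 0.03), and none passed the test. The median was -0.05 after rescaling to TPM, with 16 negative, -0.33 with the ribosomal RNA share as a covariate, with 19 negative, and -0.11 with a term for Y-linked reads, with 17 negative. Zfp593, a ribosome assembly factor, averaged 0.571 FPKM and was not a member. Among those known from blood cells, Zfp521, a cofactor of early hematopoietic cells that opposes Ebf1, had 9.64, 9.83, 13.3 and 6.67 FPKM in Fth1-deleted libraries, against 6.90, 31.6 and 16.4 FPKM in control libraries. Control 1 was almost the lowest of all and control 2 the highest, and the log2 difference was -0.64 (SE 0.50). Zfp335, needed for T cell maturation, and Zfp318, which B cells need for IgD, had differences of -0.08 (SE 0.41) and 0.28 (SE 0.58). Both signs turned without control 1, to 0.21 in Zfp335 and -0.36 in Zfp318, and Zfp335 shares 23.3% of its exonic bases with Pcif1 on the other strand.

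Members that guard imprints and retroelements did not share a direction. Zfp57, which keeps the methylation of imprinted loci, had 6.88, 9.11, 11.8 and 8.98 FPKM in Fth1-deleted libraries, against 9.15, 32.4 and 9.31 FPKM in control libraries. Control 2 alone stood above the rest, and the log2 difference was -0.59 (SE 0.49). Its partner in imprint upkeep, Zfp445, had 57.8, 69.0, 66.7 and 50.3 FPKM in Fth1-deleted libraries, against 86.0, 104 and 48.3 FPKM in control libraries, so control 3 was the lowest library and control 2 the highest (log2 difference -0.32, SE 0.27). Zfp809, which silences murine leukemia viruses, Zfp568, which represses a placental Igf2 transcript, and Zfp932, which silences endogenous retroviruses, had differences of 0.12 (SE 0.34), 0.25 (SE 0.49) and 0.32 (SE 0.34). Without control 1 the difference of Zfp809 was -0.13.

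Among transcription factors, Zfp384, whose human counterpart is fused in acute leukemia, had 42.8, 33.1, 45.8 and 47.2 FPKM in Fth1-deleted libraries, against 46.8, 36.3 and 13.2 FPKM in control libraries. Only control 3 was low, and the log2 difference was 0.55 (SE 0.38). Zfp143, which binds many promoters, had 7.16, 4.53, 6.92 and 6.56 FPKM in Fth1-deleted libraries, against 4.96, 4.97 and 1.12 FPKM in control libraries (log2 difference 0.77, SE 0.56). Fth1-deleted 2 was below control 1 and 2, so the groups overlapped. Zfp410, an activator of Chd4 transcription, had 42.4, 19.0, 40.3 and 43.2 FPKM in Fth1-deleted libraries, against 38.3, 28.2 and 33.2 FPKM in control libraries, with Fth1-deleted 2 apart (log2 difference 0.06, SE 0.32). Zfp217, Zfp148 and Zfp281 had differences of 0.27 (SE 0.33), -0.27 (SE 0.31) and -0.02 (SE 0.48), and their groups overlapped. The sign turned in Zfp217 without control 1 (-0.09), in Zfp281 without control 2 (0.27) and in Zfp410 without control 2 (-0.05).

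Apart from the RNA decay genes, the listed members that act on RNA and ribosomes included Zfp622, a factor of the large ribosomal subunit, with a log2 difference of -0.48 (SE 0.29). It had 34.6, 26.7, 23.5 and 42.2 FPKM in Fth1-deleted libraries, against 39.3, 35.5 and 58.7 FPKM in control libraries, and Fth1-deleted 4 lay above control 1 and 2. Zfp598, a ubiquitin ligase that marks collided ribosomes, averaged 49.9 ± 8.35 FPKM in Fth1-deleted (SD, n = 4) and 49.8 ± 12.5 FPKM in control libraries (SD, n = 3). Its log2 difference was 0.02 (SE 0.25), and the sign turned without control 3 (-0.19). Zfp326 and Zfp638, both linked to splicing, and Zfp346, which binds double-stranded RNA, had differences of 0.14 (SE 0.31), 0.08 (SE 0.23) and 0.10 (SE 0.37). These signs turned without control 2 in Zfp326 (-0.14) and Zfp346 (-0.25) and without Fth1-deleted 3 in Zfp638 (-0.03). Zfp91, a ubiquitin ligase, was at 0.03 (SE 0.25) and at -0.14 without control 2.

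The corepressors that KRAB proteins recruit were measured as a list of 25 genes. All 25 were tested and none passed. The median log2 difference was 0.05, with 18 positive and 7 negative, and it was -0.02 after rescaling to TPM, with 10 positive, 0.24 with the ribosomal RNA share as a covariate and 0.11 with a term for Y-linked reads, with 14 positive in each. The median of the KRAB members was negative under all of these. The median level of the list was 99.4 FPKM, and protein-coding genes from 50 FPKM upward had a median log2 difference of 0.05. Every Fth1-deleted library was above every control library in 4.1% of all tested genes and 7.08% of those protein-coding genes. The same held in 4 of the 25 listed genes, or 16%. One was Uhrf1, which ties DNA methylation to replication, with 139, 151, 146 and 149 FPKM in Fth1-deleted libraries, against 122, 78.1 and 76.3 FPKM in control libraries (log2 difference 0.69, SE 0.20, adjusted p by limma 0.309). The others were Suv39h1, a histone methyltransferase (0.79, SE 0.30), Cbx3, a heterochromatin protein (0.53, SE 0.19), and Mbd3, a subunit of the NuRD complex (0.47, SE 0.18). Trim28, which binds the KRAB box itself, had 798, 838, 752 and 798 FPKM in Fth1-deleted libraries, against 932, 621 and 815 FPKM in control libraries. All Fth1-deleted values of Trim28 lay within the control range, and the log2 difference was 0.03 (SE 0.17). Setdb1 was at 0.07 (SE 0.26).

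Related families left out by the symbol were described in the same way. The 32 Zbtb genes at 5 FPKM or more had a median log2 difference of -0.14, with 20 negative, and the 15 Zkscan and Zscan genes -0.19, with 11 negative. The 9 Klf genes had -0.38, with 6 negative, and the 15 Zc3h genes, which carry CCCH fingers, 0.09, with 6 negative. With the ribosomal RNA share as a covariate the medians were -0.39 for Zbtb, -0.02 for Zkscan and Zscan (8 negative), -0.12 for Klf and -0.21 for Zc3h. With quantile normalization they were -0.02 for Zbtb and -0.05 for Zkscan and Zscan, and with a term for Y-linked reads -0.60 for Klf and -0.03 for Zc3h. None of these genes was called, and whether the families differ from the Zfp members was not tested.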

How the data were processed

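RNA from HSCs of 4 Fth1-deleted and 3 control libraries was sequenced in pairs. Per the labels and the submitters' processing notes, the authors used NEBNext Ultra kits, aligned reads with HISAT2 2.0.4 to GRCm38 and counted them with HTSeq 0.9.1. Values were deposited as FPKM, which the authors computed from each gene's read count and length. The annotation release, filter and strand setting are not given in the sources used here. FPKM times the mean transcript length gave whole reads (within 0.05) for 98.8% to 99.4% of values under 50 reads, so depth was recovered. Such reads are not independent molecules, and counting error covers counting only.

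Of 55855 identifiers, 55394 matched GENCODE M21. The test was limma 3.58.1 (R 4.3.3), limma-trend on log2(FPKM + 1) over the 13948 genes with a mean of at least 1 FPKM, on all 7 libraries without covariates. A run of the same fit on simulated data used independent libraries and a fixed spread, lower than that of the members. It therefore cannot show how many real differences would be missed in these libraries. Fold changes on this scale understate changes of low genes. Genes were named by rule: members past the threshold, up to 10 per direction whose groups do not overlap, the 5 most abundant, the 2 on either side of the limit, the role list and the cluster members; Zfp692, the remaining members whose groups do not overlap and the corepressors with values were chosen after their values were seen. KRAB boxes were found with HMMER 3.4 (profile from 147 windows of 42 residues, E-value at most 1e-05) in translations of the longest GENCODE coding sequence, in place of the RefSeq proteins first planned, and C2H2 and CCCH fingers by cysteine and histidine spacing. Of the members, 70 share exonic bases with another gene and 12 have a near-identical copy (at least 98% over 100 bases, by BLAST 2.17.0, over at least 10% of the transcript). Such overlaps are given above for only part of the named genes. The members and lists were chosen with earlier results of these data known. Alternatives were other pseudocounts, filters, scalings, weights, a replicate block, a ribosomal RNA covariate, voom, each library left out and, chosen after seeing the data, terms and subsets for Y-linked reads and ribosomal RNA. The B cell marker list is not reported here.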

Additional observations from a re-analysis of the deposited data

Results flagged for a closer look

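In 5 cases, a library of a named member stood apart within the Fth1-deleted group. Zfp410 had 19.0 FPKM in Fth1-deleted 2, against 40.3 to 43.2 FPKM in the other Fth1-deleted libraries. Zfp68 had 16.8 FPKM in Fth1-deleted 3, against 7.83 to 8.80 FPKM in the others. Zfp763 had 11.8 FPKM in Fth1-deleted 1, against 3.39 to 4.63 FPKM in the others. Zfp955a had 1.81 FPKM in Fth1-deleted 3, against 6.18 to 6.48 FPKM in the others. Zfp692 had 27.1 FPKM in Fth1-deleted 4, against 35.2 to 36.5 FPKM in the others. In each, the gap to the nearest library exceeded Dixon's 95% critical value for 4 samples. Of 58 members checked, 5 were past it, and chance flags about 1 in 20 groups. The 3 control libraries are too few for this check.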

How the results depend on the processing

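No member passed the threshold under any alternative, and the median difference of the members was negative under each. At the same threshold 8 of all tested genes were called, and 0 without a filter, 17 without a trend, 4 among protein-coding genes, 32 with the ribosomal RNA share as a covariate, 5 by voom, 17 with a term for Y-linked reads and 0 to 4 with 1 library left out. The fits on subsets by Y-linked reads or ribosomal RNA leave 1 library in a group, so genes called there are not given. The members' median was -0.42 with the ribosomal RNA covariate, -0.32 among libraries with Y-linked reads, -0.34 among those with a high ribosomal RNA share and -0.26 to -0.13 with 1 library left out. Members whose groups did not overlap numbered 1 higher after TPM rescaling, where 3.08% of all tested genes lay higher, and 24 to 42 lower and 4 to 11 higher with 1 library left out, where 6.90% to 11.75% of all tested genes lay lower and 5.28% to 9.20% higher. Such counts can only stay or rise when a library is left out. Replicate numbers did not pair the libraries (correlations of deviations 0.009, 0.0609 and -0.037), and with the number as a block 0 genes were called and 122 members were negative, at a median of -0.14.

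Of 1160 pairs of a named gene and an alternative, 1103 kept their direction and 57, over 18 genes, reversed; the cause was not tested. With the ribosomal RNA covariate the log2 differences were -0.24 in Zfp207, -0.42 in Zfp598, -0.66 in Zfp217, -0.56 in Zfp809, -1.45 in Zfp318, -0.45 in Zfp568, 0.0474 in Zfp871, 1.24 in Zfp81, 0.38 in Zfp763 and 0.26 in Zfp952. With the replicate block they were -0.046 in Zfp410, 0.063 in Zfp335, 0.13 in Zfp281, -0.10 in Zfp955a and 0.0604 in Zfp871. With TPM they were -0.0559 in Zfp598, -0.0432 in Zfp91, -0.0163 in Zfp410 and -0.0724 in Zfp955a. With quantile normalization they were 0.0162 in Zfp335, 0.0969 in Zfp281 and 0.0498 in Zfp952. With library weights they were -0.0379 in Zfp91 and 0.0584 in Zfp281, with size factors 0.0033 in Zfp281, and with a pseudocount of 0.1 -0.033 in Zfp955a. With 1 library left out they ranged from -0.0328 to 0.17 in Zfp638, -0.19 to 0.18 in Zfp598, -0.14 to 0.18 in Zfp91, -0.25 to 0.52 in Zfp346, -0.0927 to 0.59 in Zfp217, -0.0498 to 0.34 in Zfp410, -0.14 to 0.30 in Zfp326, -0.13 to 0.36 in Zfp809, -0.34 to 0.21 in Zfp335, -0.36 to 0.87 in Zfp318, -0.20 to 0.27 in Zfp281, -0.12 to 0.35 in Zfp955a, -0.30 to 0.0604 in Zfp871 and -0.36 to 0.25 in Zfp952.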
